A study of Mus musculus with 10 samples.

Results

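The 40 genes described here encode the machinery that makes ribosomes: the RNA polymerase I apparatus, the small nucleolar ribonucleoproteins (snoRNPs) that modify ribosomal RNA, and the factors that cut, fold and assemble the precursors of the 40S and 60S subunits. They were listed by symbol, with earlier results of these data known, from Ncl and Npm1 to Nip7 and Mrto4, and all 40 were found among the 48709 genes of the deposited tables. The RNA came from supporting cells, which were sorted by their Lfng-driven green fluorescence from utricles of mice at postnatal day 21. A sort by a single reporter keeps any cell in which that reporter is on. The utricle is a balance organ of the inner ear, and its supporting cells do not normally divide in the adult. Explants were kept for 5 days in 10 μM TRULI, an ATP-competitive inhibitor of the Lats kinases that restrain the coactivator Yap, or in vehicle, and some were then kept for 5 more days without the compound; all carried 0.1% DMSO. The labels give 3 libraries of vehicle at 5 days (DMSO d5), 3 of TRULI at 5 days (TRULI d5), 2 of vehicle at day 10 (DMSO d10) and 2 of TRULI withdrawn by day 10 (TRULI d10). The number of animals pooled for a library is not given in the sources used here, so a p-value measures the spread between libraries only.

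Sample labels and deposited names gave different conditions for 4 of the 10 libraries, and each comparison is therefore given under both groupings. The tables of the libraries labelled TRULI d5 replicates 1 and 2 were deposited under names of vehicle at day 10. Those of the libraries labelled DMSO d10 replicates 1 and 2 were deposited as TRULI at 5 days, and the library labelled TRULI d5 replicate 3 kept its condition but carried replicate number 1. The labels define the groups below unless a grouping by deposited name is stated, and libraries are always called by their label. The library totals ran from 2463872 to 6255149 counts. The mitochondrial ribosomal RNA mt-Rnr2 took 13.0 to 26.4% of the counts in 6 libraries and 1.45 to 2.53% in the other 4, namely labelled TRULI d5 replicates 1 and 2 and both TRULI d10 libraries. By deposited name those 4 are the day 10 libraries, so the share of mt-Rnr2 and the day of culture cannot be told apart under that grouping. Levels in single libraries are given as CPM, counts scaled to the library total with TMM factors, and 3 counts, taken as the limit of counting, correspond to between 0.469 and 1.2 CPM. Ccn2, a target of Yap, stood at 15.6, 8.87 and 11.6 CPM in DMSO d5, 2.03, 6.46 and 712 in labelled TRULI d5, 489 and 481 in labelled DMSO d10 and 15.3 and 3.66 in TRULI d10. The proliferation marker Mki67 stood at 0, 1.64 and 0.744 CPM in the DMSO d5 libraries, 0.469, 0 and 26.8 in those labelled TRULI d5, 127 and 56.2 in those labelled DMSO d10 and 0 and 0 in TRULI d10. These genes were high in the 3 libraries whose deposited name is TRULI at 5 days, and the labels put 2 of those libraries among the vehicle controls. All 8 supporting cell markers were detected in all 10 libraries, led by Otog and Sox9. In the 4 libraries with little mt-Rnr2, 3 of the 8 lay below all the other 6 libraries: Lfng itself at 21.2 to 100.2 CPM against 289.8 to 563 CPM, Sox2 at 31.5 to 47.2 against 52.3 to 89.5 CPM and Otogl at 15.5 to 23.4 against 30.5 to 98.7 CPM. The Schwann cell marker Mbp lay above, at 52.2 to 117 against 22.4 to 36.9 CPM. The summed level of 8 hair cell markers ranged from 32.2 to 823 CPM in the 4 libraries and from 124 to 604 CPM in the other 6, and that of 6 mesenchymal markers from 34.6 to 96.4 and from 18.4 to 64.4 CPM. The sum of 3 endothelial markers ran from 0 to 2.96 CPM over all libraries, and that of 4 immune markers from 0.87 to 18.1 CPM. The immune markers Ptprc and C1qa were at 0 in 9 and 10 of the libraries, and the endothelial markers Cdh5 and Kdr each had counts in a single library. Of the 3 melanocyte markers, Tyr was at 0 throughout and Dct at 0.249 CPM or less. The third, Pmel, lay at 0.359 to 6.96 CPM in the 4 libraries with little mt-Rnr2. In the other 6 it lay above that, at 8.87 to 14.1 CPM. The part of cell composition, mt-Rnr2 content or label in the results below was not tested.

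Ribosome production starts in the nucleolus, where RNA polymerase I transcribes the precursor of the 18S, 5.8S and 28S ribosomal RNAs. Box C/D snoRNPs then methylate the precursor and box H/ACA snoRNPs convert uridines in it to pseudouridine, while the small subunit processome folds and cleaves the 18S part and a separate set of factors builds the 60S particle. The pathway is known to be stimulated by growth signals and by Myc, and dividing cells need new ribosomes. In these libraries it can be compared between cells given a proliferative stimulus and cells without it.

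Of the 40 genes, 7 carry snoRNA genes on their own strand, 21 snoRNA genes in all, so that transcripts of the biogenesis factors also deliver guide RNAs. Nop56 holds 5, Nop58 4, Ncl, Gnl3 and Wdr43 3 each, Tsr1 2 and Dkc1 1. 3 box C/D snoRNAs hosted by named members are shown because their conserved boxes are what Fbl, Nop56 and Nop58 assemble on; the capitals mark box C (TGATGA) and box D (CTGA), and the sequences are those of GENCODE M21 (GRCm38). Snord110 lies in Nop56 at chr2:130275506-130275573 on the plus strand, Snord82 in Ncl at chr1:86356261-86356330 on the minus strand and Snord69 in Gnl3 at chr14:31014287-31014366 on the minus strand.
Snord110: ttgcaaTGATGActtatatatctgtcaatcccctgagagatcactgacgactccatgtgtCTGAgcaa
Snord82: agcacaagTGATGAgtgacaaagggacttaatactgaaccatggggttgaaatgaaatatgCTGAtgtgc
Snord69: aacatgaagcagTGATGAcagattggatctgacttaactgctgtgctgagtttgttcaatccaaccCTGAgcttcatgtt
All 21 snoRNA genes were listed at 0 counts in every library, so the data describe the host transcripts and not the guide RNAs within them. The labels name enrichment of polyadenylated RNA, and these short RNAs have no poly(A) tail. The study's methods name a QIAseq FX Single Cell RNA kit instead, and the counting program is not given in the sources used here. The reason for the 0 counts was not tested.

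Promoters were matched in RefSeq (GRCm38.p6) for 36 of the 40 genes. The 250 bases before the start were searched on both strands for CACGTG, the E-box bound by Myc, and for CATTCC, the core site of the Tead factors through which Yap acts. The E-box occurred in 3 of the 36 (8.33%), against 6.86% of all genes with an entry, and the Tead core in 2 (5.56%, Rrn3 and Ubtf) against 14.36%. The windows around the E-boxes of Nop2, Utp18 and Rrn3 are shown with the E-box in capitals, since Myc differed between libraries as described below. They lie at chr6:125131803-125131848 (plus strand), chr11:93885767-93885806 (minus strand), chr16:13780464-13780509 and chr16:13780631-13780676 (both plus strand).
Nop2: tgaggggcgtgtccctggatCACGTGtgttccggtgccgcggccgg
Utp18: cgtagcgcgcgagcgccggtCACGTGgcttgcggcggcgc
Rrn3, distal: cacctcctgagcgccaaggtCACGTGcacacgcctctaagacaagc
Rrn3, proximal: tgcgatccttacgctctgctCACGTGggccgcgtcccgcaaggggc
The E-boxes begin 60 bases before the annotated start of Nop2, 20 before that of Utp18, and 215 and 48 before that of Rrn3. The promoter of Nop10, the member with the strongest calls below, holds neither motif. Its 250 bases before the start, chr2:112261676-112261925 on the plus strand, have a GC content of 47.2%.
Nop10: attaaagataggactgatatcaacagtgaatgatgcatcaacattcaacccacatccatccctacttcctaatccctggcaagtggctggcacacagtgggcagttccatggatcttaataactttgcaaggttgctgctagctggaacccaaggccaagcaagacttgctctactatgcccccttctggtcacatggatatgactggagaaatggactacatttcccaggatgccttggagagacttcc
A match describes these letters only, and neither a match nor its absence was taken as a binding site or the lack of one.

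Levels of the 40 genes were compared per length as TPM, the expected count divided by the effective length and scaled to the total over protein-coding genes, averaged over the 10 libraries. The highest mean levels were those of Nop10 (135 TPM), Fbl (83.3 TPM), Npm1 (81.1 TPM), Mrto4 (77.5 TPM) and Nop56 (65.7 TPM). The lowest were those of Utp20 (2.21 TPM), Rrp9 (1.89 TPM) and Rrp12 (0.630 TPM). Nop10 is a single gene of the plus strand at chr2:112261926-112263269, and Mrto4 lies on the minus strand at chr4:139347435-139352576 (GRCm38). The mean of Nop10 rested on 4 libraries, since it lay between 36.0 and 55.7 TPM in the 6 libraries with more mt-Rnr2 and between 186.6 and 414 TPM in the other 4. Mrto4 likewise lay between 19.4 and 34.4 TPM in the 6 and between 42.2 and 340 TPM in the 4. Its median over all 10 libraries was 30.8 TPM. Rrp9 never exceeded 5 counts in a library, Rrp12 never exceeded 13 and Gar1 never exceeded 19, and these 3 genes were removed by the filter on low counts from the 5-day comparisons. Tsr1 was removed with Rrp9 and Rrp12 from the withdrawal comparison by deposited name.

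**Figure D1:**
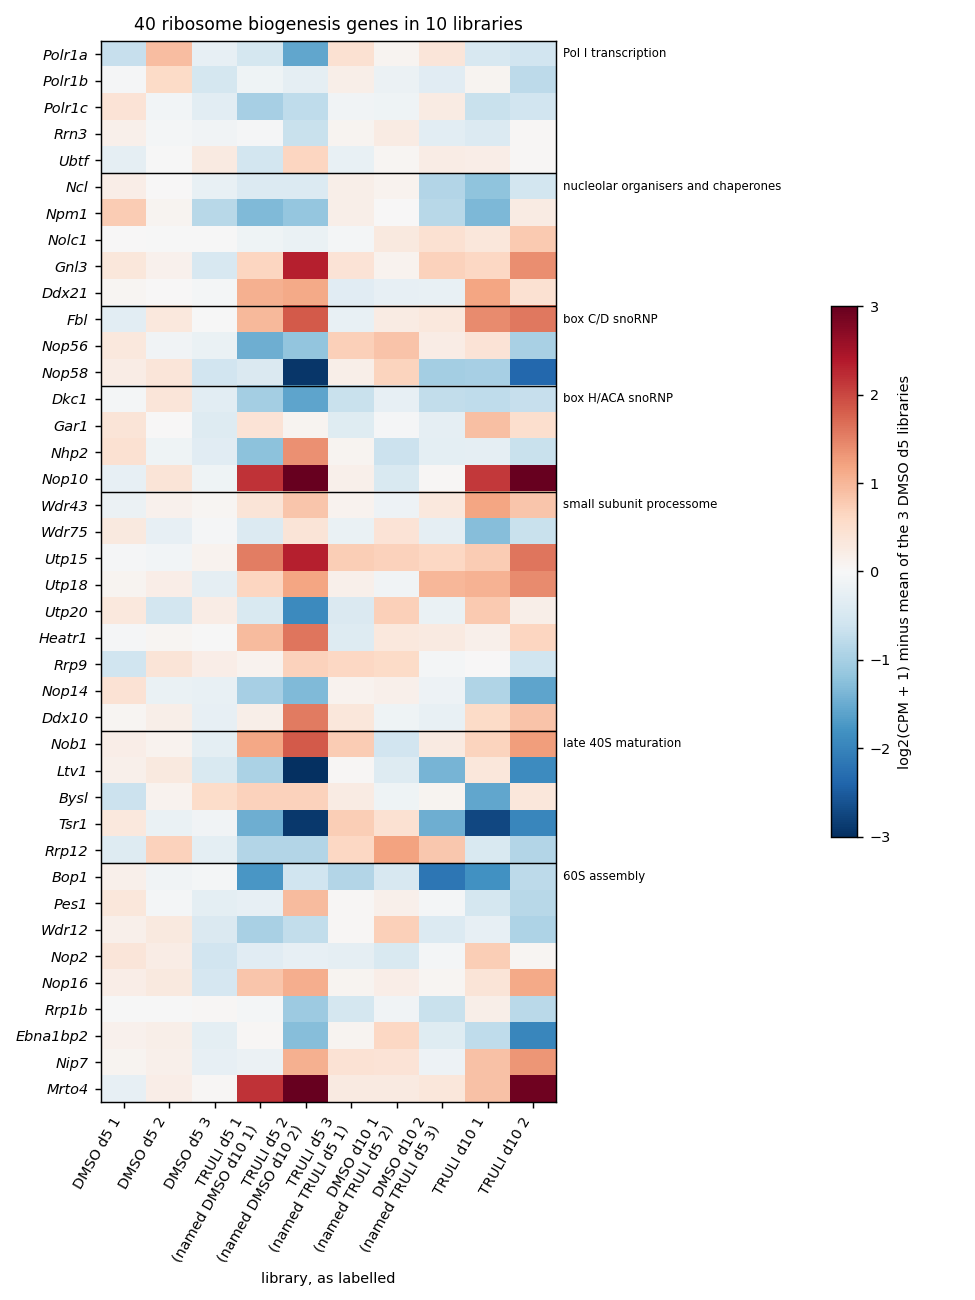
Level of each of the 40 genes (rows, by role) in each of the 10 libraries (columns, by label, with the deposited name in brackets where it differs), as log2(CPM + 1) minus the mean of the 3 DMSO d5 libraries; values beyond 3 in size take the end colour. Nop10 and Mrto4 are dark red in labelled TRULI d5 replicate 2 and TRULI d10 replicate 2, while the polymerase I genes stay pale in most columns.

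The first question was whether 5 days of TRULI changed the ribosome biogenesis genes. None of the 37 genes tested was called at an adjusted p under 0.05, in either direction and under either grouping. By label 0.00903% of all 11071 genes tested were called higher and 0% lower, so that this comparison called almost nothing at all. By deposited name it called 2.12% of 11529 genes higher and 1.16% lower, and still 0 of 37 members. The median log2 fold change of the members was -0.12 by label, against 0.05 for all genes tested, and 0.05 by deposited name, against 0.03 for all genes. By label 6 members had an unadjusted p under 0.05 (Mrto4, Nop10, Utp15, Gnl3 and Nob1 with higher and Dkc1 with lower estimates), and by deposited name 3 did (Utp15 and Nop56 higher, Bop1 lower). These are 16.2% and 8.11% of the members, against 13.7% and 16.4% of all genes tested. DESeq2 called Nop10, Mrto4 and Utp15 higher by label, against 1.94% of all genes higher and 0.529% lower. By deposited name it called 0 members, against 3.41% and 2.23% of all genes. In sorted bulk samples a smaller share of cells that express a gene and less RNA per cell cannot be told apart.

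The precision of the 5-day comparison differed between the groupings. By deposited name the 95% interval of the log2 fold change lay wholly within 1 in size for 15 of 37 members, so that a change of 2-fold or more was outside the interval for these, and by label for 5 of 37. The biological coefficient of variation of the fit was 0.307 by deposited name and 0.488 by label. The 3 libraries of each group did not overlap for 6 members higher and 4 lower by label, where 8.66% and 9.47% of all genes did so, and for 2 higher and 3 lower by deposited name, where 11.4% and 9.97% did so. In the comparison by deposited name, all 8 tested genes of the small subunit processome had a positive estimate, from 0.02 to 0.74, none of which passed the test. By label 5 of the 8 were positive and 3 negative, from -0.93 to 1.75, and none passed either. Over all 37 members 26 estimates were positive by deposited name, against 52% of all genes, and 17 by label, against 52.1%.

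**Figure D2:**
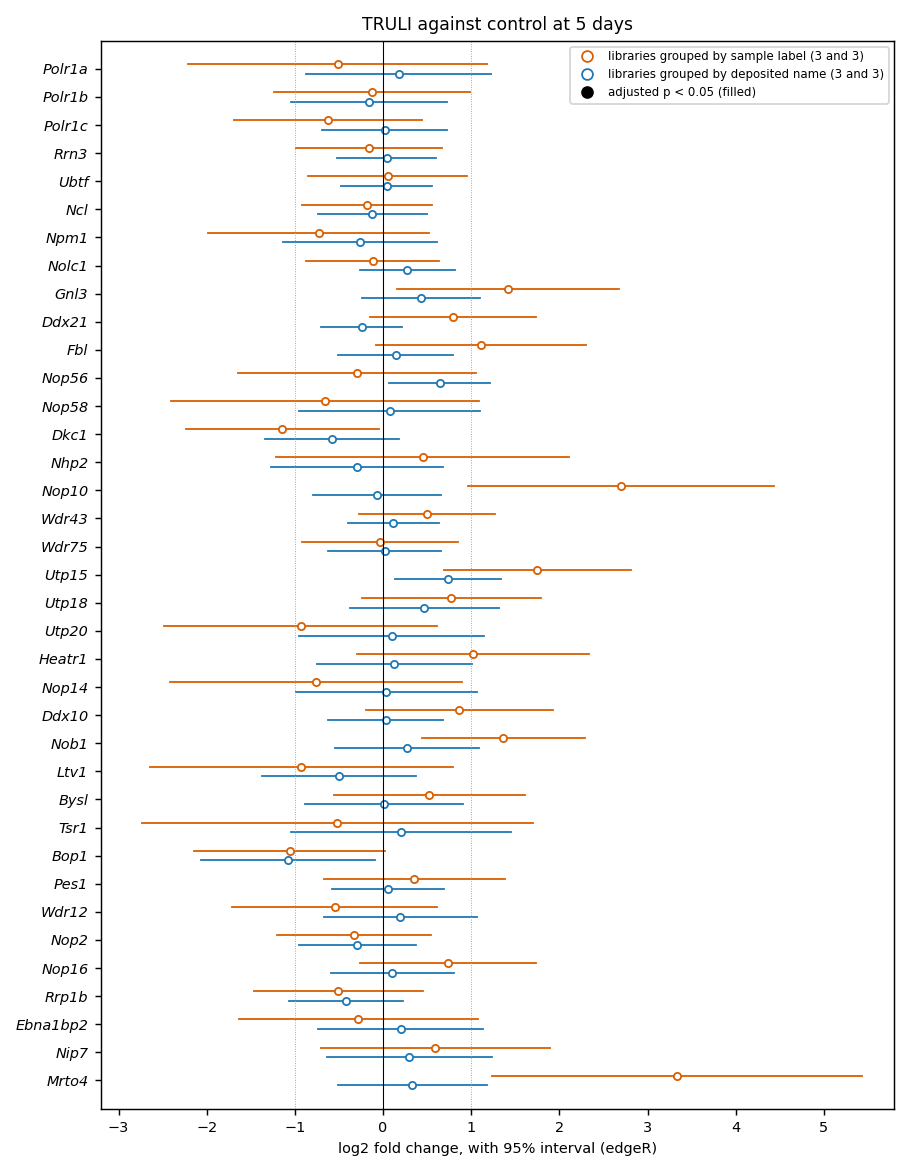
Log2 fold change of TRULI against vehicle at 5 days for the 37 tested genes, with 95% intervals from edgeR; orange, libraries grouped by label, blue, by deposited name (3 against 3 in each), and open symbols, not called. Blue intervals are shorter and lie near 0, whereas orange estimates for Mrto4 and Nop10 lie at 3.33 and 2.70 with intervals that span several units.

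The same libraries differed strongly in the growth regulators. Myc, a transcription factor that stimulates ribosome biogenesis, stood at 0.799, 3.61 and 4.21 CPM in DMSO d5, 7.04, 5.39 and 27.1 in labelled TRULI d5, 25.9 and 25.98 in labelled DMSO d10 and 33.2 and 19.1 in TRULI d10. By deposited name its 5-day log2 fold change was 3.14 ± 0.46 (SE, adjusted p = 0.00703) by edgeR's quasi-likelihood test, and that of Ccn2 was 5.57 ± 0.31 (SE, adjusted p = 2.76e-05). By label the 5-day values were 2.18 ± 0.84 (SE, adjusted p = 0.342) for Myc and 4.35 ± 1.74 (SE, adjusted p = 0.351) for Ccn2. Mycn, a relative of Myc, had a log2 fold change of 1.74 ± 0.64 (SE, adjusted p = 0.201) by deposited name and -0.14 ± 0.95 (SE, adjusted p = 0.953) by label. The members with an E-box, Nop2, Utp18 and Rrn3, had 5-day log2 fold changes of -0.29 ± 0.30, 0.47 ± 0.38 and 0.04 ± 0.26 (SE) by deposited name and -0.33 ± 0.39, 0.78 ± 0.45 and -0.16 ± 0.37 (SE) by label, none of them called.

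Among the genes of RNA polymerase I transcription, Polr1a and Polr1b encode the largest subunits of the enzyme, Polr1c a subunit it shares with polymerase III, Rrn3 the factor that brings the polymerase to the promoter, and Ubtf the upstream binding factor that keeps ribosomal DNA open. Ubtf stood at 49.9, 59.8 and 72.4 CPM in the DMSO d5 libraries, 40.4, 94.8 and 51.2 in those labelled TRULI d5, 62.9 and 70.3 in those labelled DMSO d10 and 68.7 and 61.4 in TRULI d10. Polr1c stood at 23.2, 16.1 and 13.6 CPM in DMSO d5, 8.13, 9.70 and 16.03 in labelled TRULI d5, 15.7 and 20.6 in labelled DMSO d10 and 10.4 and 11.2 in TRULI d10. Polr1a stood at 4.79, 16.8 and 6.94 CPM in the DMSO d5 libraries, 5.47, 2.15 and 11.8 in those labelled TRULI d5, 8.95 and 10.97 in those labelled DMSO d10 and 5.74 and 5.29 in TRULI d10. The groups overlapped for all 3 at 5 days under the labels, and DMSO d5 replicate 2 alone held the highest value of Polr1a. Polr1b ranged from 6.51 to 18.4 CPM over the libraries and Rrn3 from 19.4 to 37.3 CPM. The summed level of the 5 genes was the steadiest of the role groups, between 95.3 and 141 CPM. In the comparisons below 0 of 5 were called. The comparison with the most calls, vehicle at day 10 against day 5 by deposited name, called 11% of all genes higher and 8.24% lower. At such shares 0 calls among 5 genes says little. Their 5-day log2 fold changes lay between -0.62 and 0.05 by label and between -0.16 and 0.18 by deposited name.

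The nucleolar organizers and chaperones were led by Ncl (nucleolin) and Npm1 (nucleophosmin), abundant proteins that shape the nucleolus and chaperone preribosomes, with Nolc1, Gnl3 (nucleostemin) and the helicase Ddx21. Npm1 stood at 75.9, 46.98 and 24.8 CPM in DMSO d5, 17.2, 19.4 and 50.7 in labelled TRULI d5, 45.01 and 24.6 in labelled DMSO d10 and 16.9 and 53.3 in TRULI d10. It varied 3.06-fold within DMSO d5 alone, and its 5-day log2 fold change was -0.73 ± 0.56 (SE, n = 3 and 3, adjusted p = 0.546) by label and -0.27 ± 0.40 (SE, n = 3 and 3, adjusted p = 0.806) by deposited name. Ncl ranged from 47.7 to 129 CPM and Nolc1 from 26.6 to 53.7 CPM. Gnl3 stood at 30.4, 26.3 and 16.9 CPM in the DMSO d5 libraries, 38.01, 123 and 32.1 in those labelled TRULI d5, 25.6 and 39.2 in those labelled DMSO d10 and 37.2 and 64.1 in TRULI d10, and its high value came from labelled TRULI d5 replicate 2. Ddx21 stood at 57.1, 55.5 and 53.04 CPM in DMSO d5, 117, 124 and 43.4 in labelled TRULI d5, 46.7 and 47.5 in labelled DMSO d10 and 126 and 76.5 in TRULI d10. The 4 libraries with little mt-Rnr2 held between 76.5 and 126 CPM of Ddx21 and the other 6 between 43.4 and 57.1 CPM, with no overlap.

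The box C/D proteins are Fbl (fibrillarin), the methyltransferase itself, and its scaffold partners Nop56 and Nop58. Fbl stood at 17.6, 27.6 and 21.8 CPM in the DMSO d5 libraries, 43.8, 80.8 and 18.7 in those labelled TRULI d5, 26.4 and 27.8 in those labelled DMSO d10 and 60.9 and 67.5 in TRULI d10. Nop56 stood at 47.9, 35.2 and 32.96 CPM in DMSO d5, 13.1, 16.2 and 63.6 in labelled TRULI d5, 69.9 and 44.3 in labelled DMSO d10 and 51.3 and 18.9 in TRULI d10. Nop58 stood at 17.2, 19.1 and 9.42 CPM in the DMSO d5 libraries, 10.5, 1.08 and 16.6 in those labelled TRULI d5, 23.9 and 6.72 in those labelled DMSO d10 and 6.78 and 2.03 in TRULI d10. Fbl and its partners thus differed in pattern: Fbl was highest in the 4 libraries with little mt-Rnr2, where Nop58 lay between 1.08 and 10.5 CPM against 6.72 to 23.9 CPM in the other 6. The 5-day log2 fold change of Nop56 was 0.64 ± 0.26 (SE, n = 3 and 3, adjusted p = 0.246) by deposited name and -0.30 ± 0.60 (SE, n = 3 and 3, adjusted p = 0.831) by label. Nop56 and Idh3b overlap on opposite strands, and whether they share exons was not examined. Reads of a shared stretch could have been counted for either, because the strand setting of the counting is not given in the sources used here.

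The box H/ACA proteins are Dkc1 (dyskerin), the pseudouridine synthase, and Nhp2, Nop10 and Gar1, small proteins that bind beside it. Nop10 stood at 13.98, 22.01 and 15.1 CPM in DMSO d5, 78.5, 231 and 18.7 in labelled TRULI d5, 11.9 and 17.2 in labelled DMSO d10 and 75.5 and 146 in TRULI d10. The lowest of the 4 libraries with little mt-Rnr2 lay 3.43-fold above the highest of the other 6. Nhp2 stood at 11.99, 7.56 and 6.44 CPM in the DMSO d5 libraries, 2.97, 23.3 and 8.93 in those labelled TRULI d5, 4.97 and 6.72 in those labelled DMSO d10 and 6.78 and 4.88 in TRULI d10. Dkc1 stood at 16.4, 22.3 and 13.4 CPM in DMSO d5, 7.82, 5.03 and 10.2 in labelled TRULI d5, 14.2 and 9.86 in labelled DMSO d10 and 9.56 and 10.2 in TRULI d10. At 5 days the log2 fold change of Dkc1 was -1.14 ± 0.48 (SE, n = 3 and 3, adjusted p = 0.355) by label and -0.58 ± 0.34 (SE, n = 3 and 3, adjusted p = 0.461) by deposited name, and that of Nop10 was 2.70 ± 0.77 (SE, n = 3 and 3, adjusted p = 0.324) and -0.07 ± 0.33 (SE, n = 3 and 3, adjusted p = 0.942). Gar1, close to the limit of counting, ranged from 0.744 to 3.30 CPM.

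The small subunit processome was represented by 9 genes. Wdr43, Wdr75, Utp15 and Heatr1 belong to the subcomplex that first meets the nascent precursor, Utp18, Utp20, Nop14 and Rrp9 (a protein of the U3 snoRNP) join it later, and Ddx10 is an RNA helicase. Wdr43 stood at 35.6, 44.4 and 42.4 CPM in the DMSO d5 libraries, 53.3, 73.6 and 43.6 in those labelled TRULI d5, 36.6 and 50.4 in those labelled DMSO d10 and 93.7 and 73.4 in TRULI d10. Wdr75 stood at 35.2, 23.98 and 27.8 CPM in DMSO d5, 21.1, 37.7 and 24.96 in labelled TRULI d5, 38.04 and 23.5 in labelled DMSO d10 and 11.1 and 17.7 in TRULI d10. Utp15 stood at 13.98, 13.5 and 15.4 CPM in the DMSO d5 libraries, 42.9, 75.4 and 24.4 in those labelled TRULI d5, 23.6 and 22.4 in those labelled DMSO d10 and 24.7 and 45.4 in TRULI d10. All 3 DMSO d5 libraries lay below all other 7 for Utp15, at 13.5 to 15.4 CPM against 22.4 CPM or more. Its 5-day log2 fold change was 1.75 ± 0.47 (SE, n = 3 and 3, adjusted p = 0.324) by label and 0.74 ± 0.27 (SE, n = 3 and 3, adjusted p = 0.203) by deposited name, with intervals of 0.69 to 2.81 and 0.13 to 1.34. Utp18 stood at 13.2, 14.5 and 10.2 CPM in DMSO d5, 20.2, 29.8 and 13.9 in labelled TRULI d5, 11.4 and 25.8 in labelled DMSO d10 and 26.8 and 34.99 in TRULI d10. Ddx10 stood at 20.4, 22.01 and 16.4 CPM in the DMSO d5 libraries, 22.2, 58.9 and 24.7 in those labelled TRULI d5, 17.7 and 16.6 in those labelled DMSO d10 and 29.2 and 35.8 in TRULI d10. Labelled TRULI d5 replicate 2 or a TRULI d10 library held the maximum of Wdr43, Utp15, Utp18 and Ddx10, and labelled DMSO d10 replicate 1 that of Wdr75. Heatr1 ranged from 6.04 to 26.9 CPM, Utp20 from 1.44 to 14.6 CPM and Nop14 from 1.02 to 7.19 CPM.

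Late 40S maturation was represented by Nob1, the nuclease that makes the final cut of 18S ribosomal RNA, by the export and assembly factors Ltv1, Bysl and Tsr1, and by Rrp12. Nob1 stood at 21.97, 20.7 and 15.4 CPM in DMSO d5, 43.6, 70.8 and 33.1 in labelled TRULI d5, 12.4 and 23.3 in labelled DMSO d10 and 31.1 and 46.8 in TRULI d10. Ltv1 stood at 27.6, 30.6 and 17.6 CPM in the DMSO d5 libraries, 12.2, 1.44 and 25.2 in those labelled TRULI d5, 18.6 and 8.73 in those labelled DMSO d10 and 31.7 and 5.90 in TRULI d10. The order of the libraries was not the same for these genes: Nob1 was highest and Ltv1 lowest in labelled TRULI d5 replicate 2. The 5-day log2 fold change of Nob1 was 1.36 ± 0.41 (SE, n = 3 and 3, adjusted p = 0.324) by label and 0.27 ± 0.37 (SE, n = 3 and 3, adjusted p = 0.781) by deposited name, and that of Ltv1 was -0.93 ± 0.76 (SE, n = 3 and 3, adjusted p = 0.576) and -0.50 ± 0.40 (SE, n = 3 and 3, adjusted p = 0.589). Tsr1 ranged from 0.359 to 16.03 CPM and Bysl from 2.96 to 17.96 CPM.

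Of the 9 genes of 60S assembly, Bop1, Pes1 and Wdr12 form the PeBoW complex, which is needed for processing of 28S and 5.8S ribosomal RNA, Nop2 is an RNA methyltransferase and Mrto4 holds the place of a stalk protein on the maturing particle. Mrto4 stood at 5.99, 8.54 and 7.43 CPM in DMSO d5, 36.3, 175 and 8.93 in labelled TRULI d5, 8.95 and 9.41 in labelled DMSO d10 and 14.3 and 61.02 in TRULI d10. The values of labelled TRULI d5 replicate 2 and TRULI d10 replicate 1 differed 12.3-fold although both belong to the libraries with little mt-Rnr2. Bop1 stood at 21.97, 18.1 and 18.8 CPM in the DMSO d5 libraries, 5.16, 12.6 and 10.2 in those labelled TRULI d5, 13.7 and 3.58 in those labelled DMSO d10 and 4.87 and 10.98 in TRULI d10. Its 3 DMSO d5 libraries lay above all others, and its 5-day log2 fold change was -1.06 ± 0.48 (SE, n = 3 and 3, adjusted p = 0.369) by label and -1.08 ± 0.45 (SE, n = 3 and 3, adjusted p = 0.258) by deposited name. The other PeBoW members did not share that estimate, with 0.05 ± 0.29 for Pes1 and 0.20 ± 0.39 for Wdr12 (SE) by deposited name and 0.36 ± 0.45 and -0.55 ± 0.52 (SE) by label. Nop16 stood at 19.6, 21.02 and 11.6 CPM in DMSO d5, 30.97, 36.99 and 17.9 in labelled TRULI d5, 19.4 and 17.7 in labelled DMSO d10 and 22.3 and 38.2 in TRULI d10. Rrp1b stood at 20.8, 20.7 and 21.6 CPM in the DMSO d5 libraries, 20.02, 9.34 and 14.2 in those labelled TRULI d5, 19.4 and 12.8 in those labelled DMSO d10 and 23.8 and 11.6 in TRULI d10. Neither was called at 5 days. Nop2 ranged from 20.8 to 53.6 CPM, Pes1 from 10.8 to 39.9 CPM, Wdr12 from 6.26 to 22.4 CPM, Nip7 from 5.21 to 17.3 CPM and Ebna1bp2 from 1.42 to 13.4 CPM.

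**Figure D3:**
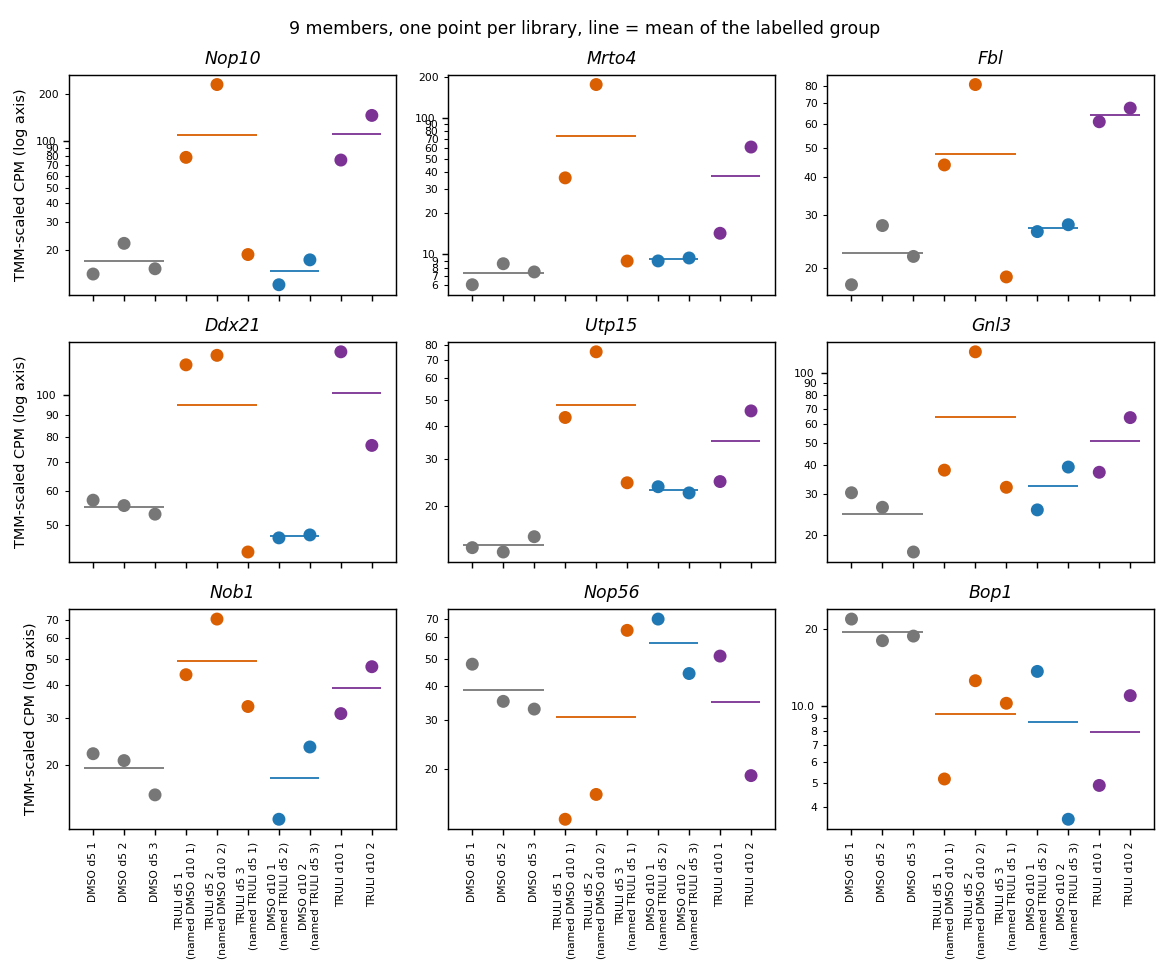
TMM-scaled CPM (log axis) of 9 members in each of the 10 libraries, 1 point per library, coloured by labelled group with a line at the group mean. For Nop10 and Mrto4 the labelled TRULI d5 group splits, with replicate 3 level with the vehicle libraries and replicates 1 and 2 level with or above TRULI d10.

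The summed level of all 40 genes was 876 ± 101 CPM (SD, n = 3) in DMSO d5 and 876 ± 77.3 CPM (SD, n = 3) in the libraries deposited as TRULI at 5 days. By label the TRULI d5 libraries summed to 1153 ± 381 CPM (SD, n = 3), with labelled TRULI d5 replicate 2 at 1593 CPM and the others at 954 and 913 CPM. By label DMSO d10 summed to 858 ± 99.8 CPM (SD, n = 2) and TRULI d10 to 1111 ± 98.9 CPM (SD, n = 2). The libraries deposited as DMSO d10 summed to 1273 ± 452 CPM (SD, n = 2). The box H/ACA sum varied most, between 32.3 and 260.4 CPM, and followed Nop10.

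**Figure D4:**
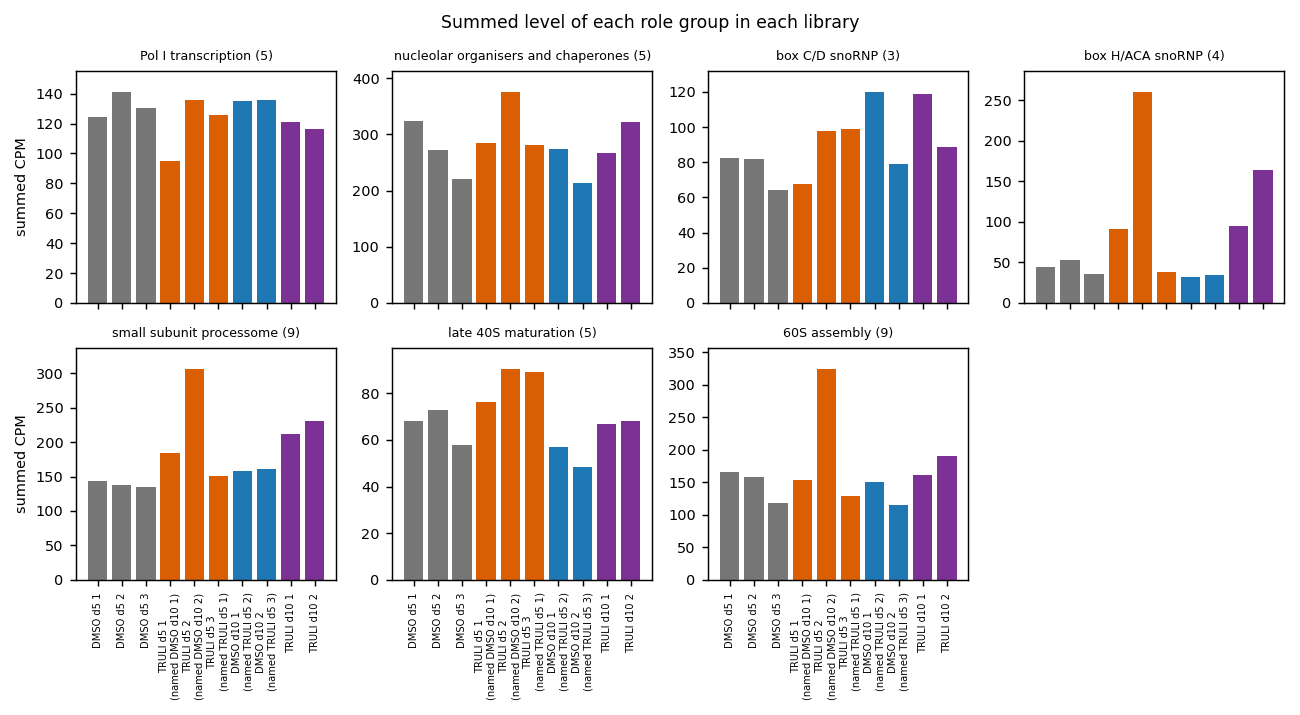
Summed CPM of the members of each role group (number of genes in brackets) in each library, coloured by labelled group. The polymerase I sum stays between 95.3 and 141 CPM, whereas the box H/ACA sum reaches 260.4 CPM in labelled TRULI d5 replicate 2.

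The second question was whether the genes differed after 5 days of recovery. By label, Nop10 was called higher in TRULI d10 than in DMSO d10, with a log2 fold change of 2.92 ± 0.50 (SE, n = 2 and 2, adjusted p = 0.0425) by edgeR, and the other 37 of 38 tested genes were not called. All genes gave 1% called higher and 1.06% called lower of 12242 tested. By deposited name 0 of 37 members were called, and 0% of 11568 genes were called in either direction. There the log2 fold change of Nop10 was -0.48, the opposite sign, because the libraries set against TRULI d10 are then labelled TRULI d5 replicates 1 and 2. DESeq2 also called 0 members by deposited name, against 0.35% of all genes higher and 0.07% lower. By edgeR 0 members had an unadjusted p under 0.05 there, against 4.6% of all genes. By label DESeq2 called Nop10 and Mrto4 higher, against 6.87% of all genes higher and 4.73% lower. The call of Nop10 by label was lost without DMSO d10 replicate 1 or replicate 2, which left 1 vehicle library. Its log2 fold changes were then 2.65 and 3.23, and these fits called a smaller share of all genes than the main fit. The call was also lost in a fit of all 10 libraries by edgeR, at 2.92 (adjusted p = 0.177), where 0% of all genes were called in either direction.

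After Nop10, the lowest p-values at withdrawal by label were those of Fbl (1.25 ± 0.39 (SE, n = 2 and 2, adjusted p = 0.114)), Mrto4 (2.03 ± 0.72 (SE, n = 2 and 2, adjusted p = 0.142)) and Ddx21 (1.11 ± 0.41 (SE, n = 2 and 2, adjusted p = 0.148)), by edgeR. Rrp12 and Tsr1 had few counts in TRULI d10, at most 2 and 8. The libraries did not overlap for 12 members higher and 8 lower of 38 by label, against 27.6% and 30.2% of all genes, and for 7 higher and 5 lower of 37 by deposited name, against 15.2% and 13.6%. With 2 libraries against 2 such a separation is common, and the members' counts lay near the background. The 95% interval lay within 1 in size for 1 of 38 members by label and 0 of 37 by deposited name. Leaving out TRULI d10 replicate 1 gave 4 members higher (Nop10, Mrto4, Fbl and Nob1) and 3 lower (Nop56, Nop58 and Ebna1bp2), where 11.6% of all genes were called higher and 12.8% lower with a single TRULI d10 library. Without TRULI d10 replicate 2, 2 were higher (Nop10 and Ddx21) and Tsr1 was lower, against 9.98% and 8.25% of all genes.

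The effect of TRULI at withdrawal was set against its effect at 5 days in a fit of all 10 libraries. The interaction called 0 of 37 members by label and 0 of 37 by deposited name, and 0% of 12841 genes in either direction under each grouping. No member had an unadjusted p under 0.05 by label and 1 did by deposited name (2.7%), against 6.81% and 9.48% of all genes. DESeq2 was not run for this contrast. The members' median difference of log2 fold changes was -0.06 by label and -0.07 by deposited name.

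TRULI d10 was also compared with TRULI d5. By label 0 of 38 members were called and 0% of 12288 genes in either direction, and 0 members had an unadjusted p under 0.05, against 3.25% of all genes. DESeq2 called 0 members, against 0.0527% of all genes higher and 0.0117% lower. By deposited name 4 of 38 members were called higher and 0 lower, against 8.1% of 12450 genes higher and 5.86% lower. Nop10 rose by 2.82 ± 0.39 (SE, adjusted p = 0.0105), Mrto4 by 2.07 ± 0.58 (SE, adjusted p = 0.0493), Fbl by 1.43 ± 0.34 (SE, adjusted p = 0.0318) and Ddx21 by 1.17 ± 0.32 (SE, adjusted p = 0.0456) on the log2 scale. The share of 4 in 38 lay near the background of the comparison. Of the 2 Schwann cell markers tested Mbp rose as well, by 1.45 ± 0.36 (SE, adjusted p = 0.036), and Pmp22 was not called. Of the 8 supporting cell markers Lfng and Sox2 fell by 2.17 and 1.16 on the log2 scale. All 6 proliferation markers fell, and so did the regulators Ccn2 and Mycn, with Ccn2 at -5.84. The part of these genes in the members' calls was not tested. The 4 calls were not stable to the libraries used: 0 were left without the library deposited as TRULI d5 replicate 2, where 0.0493% of all genes were called in each direction, and 1 or 2 without any of the others but TRULI d10 replicate 1. Without that one 3 were called higher and Nop56 and Nop58 lower, against 10.7% and 8.76% of all genes.

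The vehicle libraries of day 10 were compared with those of day 5. By label 0 of 37 members were called, against 1.96% of 12017 genes higher and 0.474% lower. DESeq2 called 0 members by label too, against 2.38% of all genes higher and 1.36% lower. By edgeR Bop1 alone had an unadjusted p under 0.05 (2.7% of the members, against 14.9% of all genes). By deposited name 7 of 37 were called higher and 1 lower, against 11% of 11382 genes higher and 8.24% lower. This comparison sets labelled TRULI d5 replicates 1 and 2 against DMSO d5, with 1.99 and 2.53% of counts in mt-Rnr2 against 16.2 to 26.4%. Cell type markers moved with it, since 4 of the 7 hair cell markers tested fell (Pou4f3, Otof, Myo7a and Gfi1, by 2.50, 3.08, 3.59 and 4.68 on the log2 scale) and 2 of 8 supporting cell markers did (Lfng by 3.63 and Otogl by 2.02); their part in the members' calls was not tested. Mrto4 rose by 3.83 ± 0.61 (SE, adjusted p = 0.0087), Nop10 by 3.17 ± 0.47 (SE, adjusted p = 0.00748) and Utp15 by 2.03 ± 0.38 (SE, adjusted p = 0.013) on the log2 scale. Gnl3, Nob1, Fbl and Ddx21 rose by 1.71, 1.55, 1.46 and 1.11 on that scale, and Nop56 fell by 1.41 (adjusted p = 0.0376). The box C/D group was the only role group with calls in both directions, as Fbl rose and its partner Nop56 fell. Without DMSO d5 replicates 1, 2 and 3 in turn 2, 0 and 3 members were called higher and 0 lower. In those 3 fits the share of all genes called higher was 2.81%, 0.00895% and 4.25%, and that called lower was 1.48%, 0.0269% and 2.33%. Leaving out a library deposited as DMSO d10 left 1 sample in that group, and the numbers of members called changed there too.

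By deposited name the day 10 against day 5 comparisons of vehicle and of TRULI share no library. The 4 members called with TRULI, Nop10, Mrto4, Fbl and Ddx21, were 4 of the 8 called in vehicle, and all 4 rose in both. Among the 11207 genes tested in both, 584 rose in both, which is 59.2% of the 987 that rose with TRULI and 47.0% of the 1243 that rose in vehicle. Both comparisons set libraries with little mt-Rnr2 against libraries with more. Of the 37 members tested in both, 28 had the same sign (75.7%), against 75.8% of 11207 genes, so the members moved alike in both arms about as often as genes in general did.

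**Figure D5:**
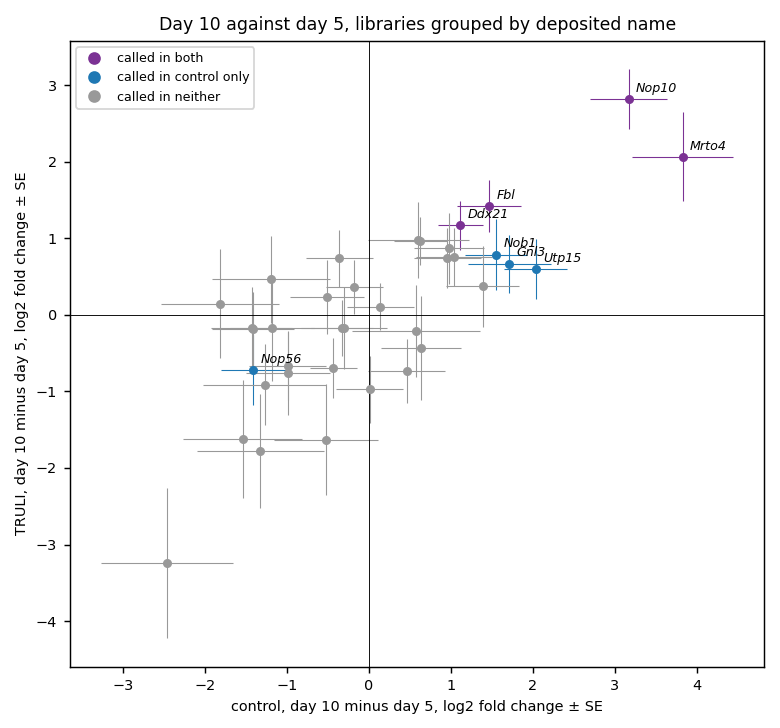
Log2 fold change of day 10 against day 5 in vehicle (horizontal) and with TRULI (vertical) for the 37 members tested in both, libraries grouped by deposited name, bars showing the SE. Nop10 and Mrto4 lie at the upper right, Fbl and Ddx21 nearer the centre, and Nop56 is the called gene on the lower left.

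Several of these comparisons are made of the same libraries in another arrangement. The 5-day comparison by label without labelled TRULI d5 replicate 3 is the vehicle comparison of day 10 with day 5 by deposited name, and gave the same 7 members higher and 1 lower. In the libraries whose label and deposited name agree, 3 DMSO d5 against labelled TRULI d5 replicate 3, 0 of 37 members were called, against 0.777% of 12348 genes higher and 0.308% lower, with a median log2 fold change of 0.08 and the spread taken from the vehicle libraries alone. The log2 fold change of Nop10 was then 0.13 and that of Mrto4 0.28.

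Beyond the 40 members, 90 of 91 other listed ribosome biogenesis genes were found. At 5 days 0 of 84 tested by label and 0 of 87 by deposited name were called, with median log2 fold changes of -0.10 and 0.01. Of all genes 0.00903% were called higher and 0% lower by label, and 2.12% and 1.16% by deposited name. At withdrawal Pdcd11, a processome component, was called higher by label (2.43 ± 0.45, SE) among 88 tested, and 0 of 86 were called by deposited name. The shares of all genes there were 1% higher and 1.06% lower by label, and 0% in either direction by deposited name. In the TRULI comparison of day 10 with day 5 by deposited name 7 of 89 rose and 1 fell, against 8.1% and 5.86% of all genes. The increases were led by Pdcd11 (2.67 ± 0.42), the polymerase subunit gene Polr1d (1.80 ± 0.38) and the helicase gene Ddx18 (1.70 ± 0.33). Utp3 fell by 3.46 on the log2 scale. In vehicle 9 of 84 rose and 8 fell, against 11% and 8.24% of all genes. The largest increases were those of Polr1d (2.44 ± 0.49), Pdcd11 (2.39 ± 0.45) and Ddx18 (2.34 ± 0.29), and the largest decreases those of Utp3 (-5.14 ± 0.80), Ttf1 (-3.48 ± 0.73), which encodes a polymerase I termination factor, and Ddx49 (-2.25 ± 0.57).

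Of the 40 members, 22 overlap no annotated gene, among them Nop10, Mrto4, Fbl, Ddx21, Utp15 and Nob1. The spans of 16 overlap a gene on the opposite strand, with which reads of a shared stretch could be exchanged. Gnl3 is overlapped by Pbrm1, Bop1 by Mroh1 and Scx, and Dkc1 by Mpp1. A processed pseudogene of Mrto4, Mrto4-ps2, was listed at 0 counts in every library. Another, Mrto4-ps1, had no entry in the deposited counts, so reads from it could not be examined. Across members the log2 fold change showed Spearman correlations with effective length between -0.15 and 0.11 over the 10 comparisons, each over 37 or 38 genes that share the same libraries.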

How the data were processed

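RNA sequencing of supporting cells sorted from cultured utricles was analysed in 10 libraries, with 1 deposited table each. The study's methods name a QIAseq FX Single Cell RNA kit, whereas the labels name polyA enrichment and a TruSeq kit. Alignment was to GRCm38/mm10 with STAR, and the authors deposited expected counts and effective lengths per gene without normalization; the counting program, its annotation and its strand setting are not given in the sources used here. Between any 2 libraries the chi-square per degree of freedom of the counts was at least 16.7, so none was counted as a repeat of another.

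Groups came from the sample labels, with the deposited names as a fully worked second grouping. Symbols and positions came from GENCODE M21 (48349 of 48709 identifiers matched). Expected counts were rounded and compared with edgeR 4.0.16 (R 4.3.3; filterByExpr, TMM, quasi-likelihood test), 2 groups per fit, with Benjamini-Hochberg adjustment over all genes tested and a threshold of 0.05. The difference of the treatment effects was a contrast over all 10 libraries. Alternatives were DESeq2 1.42.0, its size factors in edgeR, no filter, all 10 libraries in one fit, the replicate number as a block, adjustment over protein-coding genes, an added threshold of 1 on the log2 fold change, leaving out each library and, chosen after seeing the data, the libraries whose label and deposited name agree. The code was checked on simulated counts. Replicate numbers of the deposited names paired the 5-day libraries (correlations of deviations from the group means between 0.192 and 0.381). The main fits and their intervals did not use this pairing.

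The members, role groups and other lists were chosen with earlier results of these data known. Values in every library are given for the 2 members of each role group with the highest level per length and the 2 with the lowest p at 5 days under each grouping, and other members by range; of the other pathway genes, counts and the 3 largest called changes in each direction are given. The limit of 3 counts covers counting error only.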

Additional observations from a re-analysis of the deposited data

How the results depend on the processing

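Numbers of members called depended on the grouping and on single libraries, and the cause was not tested. At 5 days by label, where 0 were called, DESeq2 and dropping the filter each called 3 higher, against 1.94% and 2.7% of all genes. Leaving out a library gave 0 to 7 higher and 0 to 1 lower, against 0 to 11% and 0 to 8.24% of all genes. At withdrawal by label (1 higher, 0 lower), the deposited names gave 0, with Nop10 at -0.48 on the log2 scale, and all 10 libraries in one fit 0. In both of these 0% of all genes were called. DESeq2 and no filter called 2 higher each, against 6.87% and 5.44% of all genes. Leaving out a library left 1 sample in an arm there. The deposited names turned the 0 calls of TRULI d10 against TRULI d5 into 4 higher, against 8.1% of all genes. They turned the 0 calls of vehicle at day 10 against day 5 into 7 higher and 1 lower, against 11% and 8.24%. Under the deposited names, TRULI at day 10 against day 5 gave 1 lower (0 in the main fit) with DESeq2, with no filter and with all 10 libraries. The shares of all genes called lower were 9.75%, 6.35% and 7.87%. Without a library of day 5 it gave 0 to 1 higher and 0 lower, against 0.0493% to 4.29% and 0.0493% to 1.72% of all genes. Vehicle at day 10 against day 5 gave 4 lower with DESeq2 and with no filter, against 10.5% and 6.49% of all genes. Without a library of day 5 it gave 0 to 3 higher and 0 lower, against 0.00895% to 4.25% and 0.0269% to 2.33% of all genes. Where a library left an arm with 1 sample, that sample was assumed to vary like the other group.

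The replicate numbers of the labels did not pair the 5-day libraries (correlations of -0.196 to 0.067). With the number as a block, TRULI at day 10 against day 5 by deposited name gave 1 higher and 1 lower, against 5.68% and 3.19% of all genes. Vehicle at day 10 against day 5 gave 3 higher and 0 lower, against 5.87% and 3.97%. In these the groups share only 2 numbers. The replicate block gave 0 higher and 0 lower at 5 days by deposited name, where the numbers pair the libraries, and changed no other call of a member. There it called 5.68% of all genes higher and 4.21% lower, against 2.12% and 1.16% without the block. At 5 days and at withdrawal by deposited name, and for the difference of the treatment effects, every alternative run called 0 members. At 5 days DESeq2 called 3.41% of all genes higher and 2.23% lower, and at withdrawal 0.35% and 0.07%. Counts were too few for a test of Rrp9 in any comparison and of Rrp12 and Gar1 in all but 2 each, where neither was called (Rrp12 at withdrawal by label, -3.71, adjusted p = 0.148).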

Other observations

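In the 4 libraries with 1.45 to 2.53% of counts in mt-Rnr2, 7 of the 37 members with at least 10 counts in at least 4 libraries (18.92%) lay above every one of the other 6 libraries, namely Nop10, Mrto4, Fbl, Ddx21, Utp15, Wdr43 and Nop16, and 3 (8.11%) lay below, namely Polr1c, Nop14 and Tsr1. Among all 11860 genes that met the same minimum, 13.37% lay above and 11.56% below. The split was made from the measured share of mt-Rnr2, follows no sample label, and was given no test. By deposited name it is the split between the day 10 and the day 5 libraries. The largest and the smallest of the 4 values of Mrto4 in these libraries, 174.9 and 14.3 CPM, differed by more than its values in the other 6 libraries, which lay between 5.99 and 9.41 CPM.

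Myc stood at 19.1 CPM or more in the 3 libraries deposited as TRULI at 5 days and in both TRULI d10 libraries, and at 7.04 CPM or less in the other 5. The summed level of the 40 members did not follow that order: it was 787 to 928 CPM in the first 3 of these, 1041 and 1181 CPM in TRULI d10, and 761 to 1593 CPM in the other 5.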
